A study of Mus musculus with 11 samples.

Results

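The genes described here code for the chains of integrins, the cell's receptors for its surrounding matrix, and of laminins, the main adhesive proteins of basement membranes. They were chosen by name, as 18 integrin alpha chains, 8 integrin beta chains and 10 laminin chains, and all 36 were found among the 36528 genes in the files. They were followed across 11 RNA sequencing libraries of cell lines from mouse liver tumours, in 3 groups named for the mutant of the tumour. The groups were YAP-S127A (3 libraries), YAP-5SA (3 libraries, spelled YAP-S5A in the sample labels) and TAZ-S89A (5 libraries). YAP and TAZ are related coactivators of the TEAD transcription factors, and the mutants have alanine in place of serines that Hippo kinases phosphorylate, at 1 named site in YAP-S127A and TAZ-S89A and at several sites in YAP-5SA. There was no comparison group free of a mutant. The labels give neither promoter, vector, mouse strain nor age, and do not tell whether libraries of a group come from separate tumours, lines or cultures. What the mutant does cannot be told apart from what the particular lines do, and p-values here cover only variation among these libraries, possibly technical.

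An integrin is a pair of an alpha and a beta chain that spans the membrane, and the pair sets the ligand. Alpha3, alpha6 and alpha7 with beta1, and alpha6 with beta4, bind laminins, while alpha1, alpha2, alpha10 and alpha11 with beta1 bind collagens. Alpha5beta1 binds fibronectin, alpha8beta1 and the alphav integrins bind ligands with an RGD motif, and the beta2 and beta7 integrins are best known from leukocytes. A laminin is a trimer of an alpha, a beta and a gamma chain, and its alpha chain carries the main integrin-binding site. In healthy liver, laminin surrounds bile ducts and vessels, while the matrix next to hepatocytes holds little of it.

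Total counts per library ran from 20071144 to 49159713, with the lowest in TAZ-S89A replicates 4 and 5, which carry sample IDs of a separate number range, called the second ID series here. No libraries matched within sampling noise, but those of a group were not equally distinct. The chi-square between counts, divided by its degrees of freedom, was 2.02 for TAZ-S89A replicates 4 and 5, 5.85 for replicates 1 and 2, and 105 to 221 for the other TAZ-S89A pairs. In YAP-S127A it was 6.6 for replicates 1 and 2, 16.24 for replicates 2 and 3 and 35.05 for replicates 1 and 3. Replicate 2 of YAP-5SA (87.8 and 139.6 from the others, which were 16.4 from each other) and replicate 3 of TAZ-S89A also stood apart, and results that change without them are given both ways. Levels of a gene across libraries are CPM, counts scaled by TMM to a common library size, as mean ± SD over n = 3 libraries of YAP-S127A, n = 3 of YAP-5SA and n = 5 of TAZ-S89A. Levels of different genes are compared in the authors' nRPKM, an RPKM adjusted by a size factor. The 6 hepatocyte markers summed to 8.74 to 10.1 CPM in the YAP-S127A libraries, 6.74 to 7.86 in YAP-5SA and 0.653 to 0.92 in TAZ-S89A, so these defining markers of the labelled tissue were nearly absent. Endothelial markers summed to at most 2.18 CPM, and mesothelial ones, mainly Msln, to 725 to 2033.

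Of the 36 genes, 32 passed the low-count filter and were tested with edgeR's quasi-likelihood test, adjusted by Benjamini and Hochberg over all 18224 genes tested and called at an adjusted p under 0.05. The 4 that did not pass were Itgad, Itgal, Itgax and Lama2, none above 0.363 CPM in any library. In YAP-5SA against YAP-S127A, 25 of 32 members were called (all genes: 55.2%), 13 of them higher (all genes: 28.2%) and 12 lower (all genes: 27%). In TAZ-S89A against YAP-S127A, 24 were called (all genes: 57.6%), 11 higher (27%) and 13 lower (30.6%). In TAZ-S89A against YAP-5SA, 23 were called (all genes: 57.9%), 8 higher (26.9%) and 15 lower (31%). The filter keeps a gene that is high in 1 group alone, so these counts describe the members and support nothing.

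Most called members differed by at least 1 on the log2 scale. Such differences numbered 23 in YAP-5SA against YAP-S127A (all genes: 34.4%), with 13 higher (17.6%) and 10 lower (16.8%). They numbered 20 in TAZ-S89A against YAP-S127A (all genes: 32.2%), with 9 higher (12.5%) and 11 lower (19.7%), and 19 in TAZ-S89A against YAP-5SA (all genes: 33.8%), with 7 higher (14.3%) and 12 lower (19.5%). Median log2 fold changes of the tested members were -0.29, 0 and -0.72 in these comparisons, beside 0.01, -0.03 and -0.04 for all tested genes. The comparisons share libraries.

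**Figure D1:**
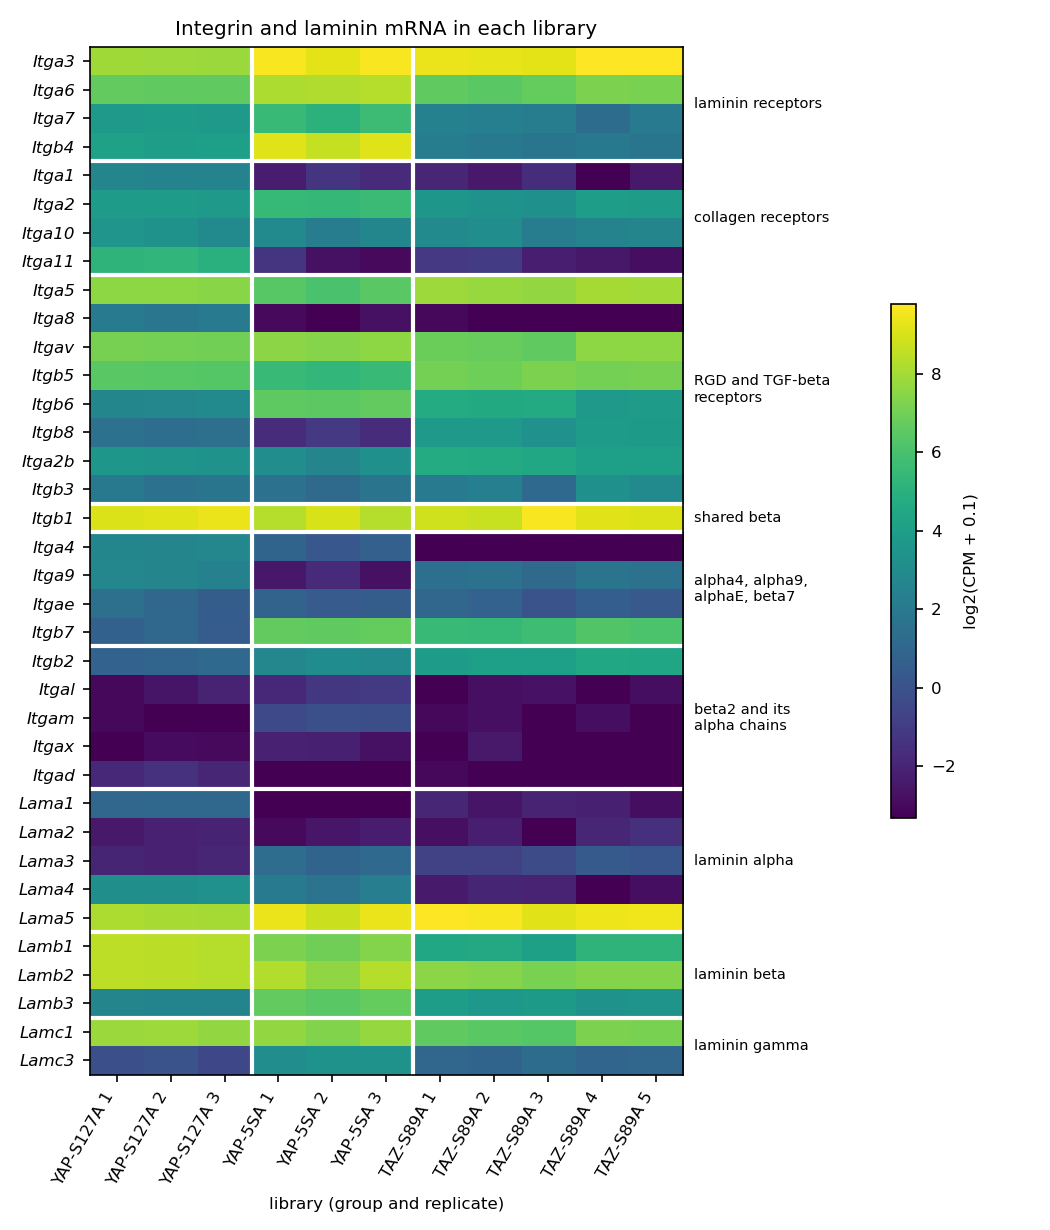
Level of each of the 36 genes (vertical axis, grouped by role) in each of the 11 libraries (horizontal axis), as log2(CPM + 0.1), with darker colours for lower levels. Itgb4, Itgb6 and Lamb3 are brightest in YAP-5SA, Itga11, Lama4 and Lamb1 in YAP-S127A, and all 5 TAZ-S89A libraries are at the darkest shade for Itga4.

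Some members were called higher or lower in 1 group than in both others. Of the 32 tested, 28.1% were higher and 25% lower in YAP-S127A. The shares were 31.2% and 15.6% in YAP-5SA, and 12.5% and 21.9% in TAZ-S89A. The higher share in TAZ-S89A and the lower share in YAP-5SA were near those of all genes, 13% and 14.1%. Called higher in YAP-S127A than in both other groups were 9 genes, the collagen receptor chains Itga1, Itga10 and Itga11, the chains Itga4, Itga8 and Itga9, and the laminin chains Lama1, Lama4 and Lamb1 (all genes: 14.9%). In YAP-5SA the higher set had 10 genes, the laminin receptor chains Itga6, Itga7 and Itgb4, the laminin chains Lama3, Lamb3 and Lamc3, and Itga2, Itgb6, Itgb7 and Itgam (all genes: 17.1%). In TAZ-S89A it had 4, Itga2b, Itgb2, Itgb5 and Itgb8 (all genes: 13%). Lower than in both other groups were 7 genes in TAZ-S89A, namely Itga4, Itga7, Itgb4, Lama4, Lamb1, Lamb2 and Lamc1 (all genes: 17.2%). In YAP-S127A the lower set had 8 genes, Itga3, Itgb2, Itgb6, Itgb7, Lama3, Lama5, Lamb3 and Lamc3 (all genes: 13.8%), and in YAP-5SA it had 5, Itga5, Itga9, Itgb5, Itgb8 and Lama1 (all genes: 14.1%).

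**Figure D2:**
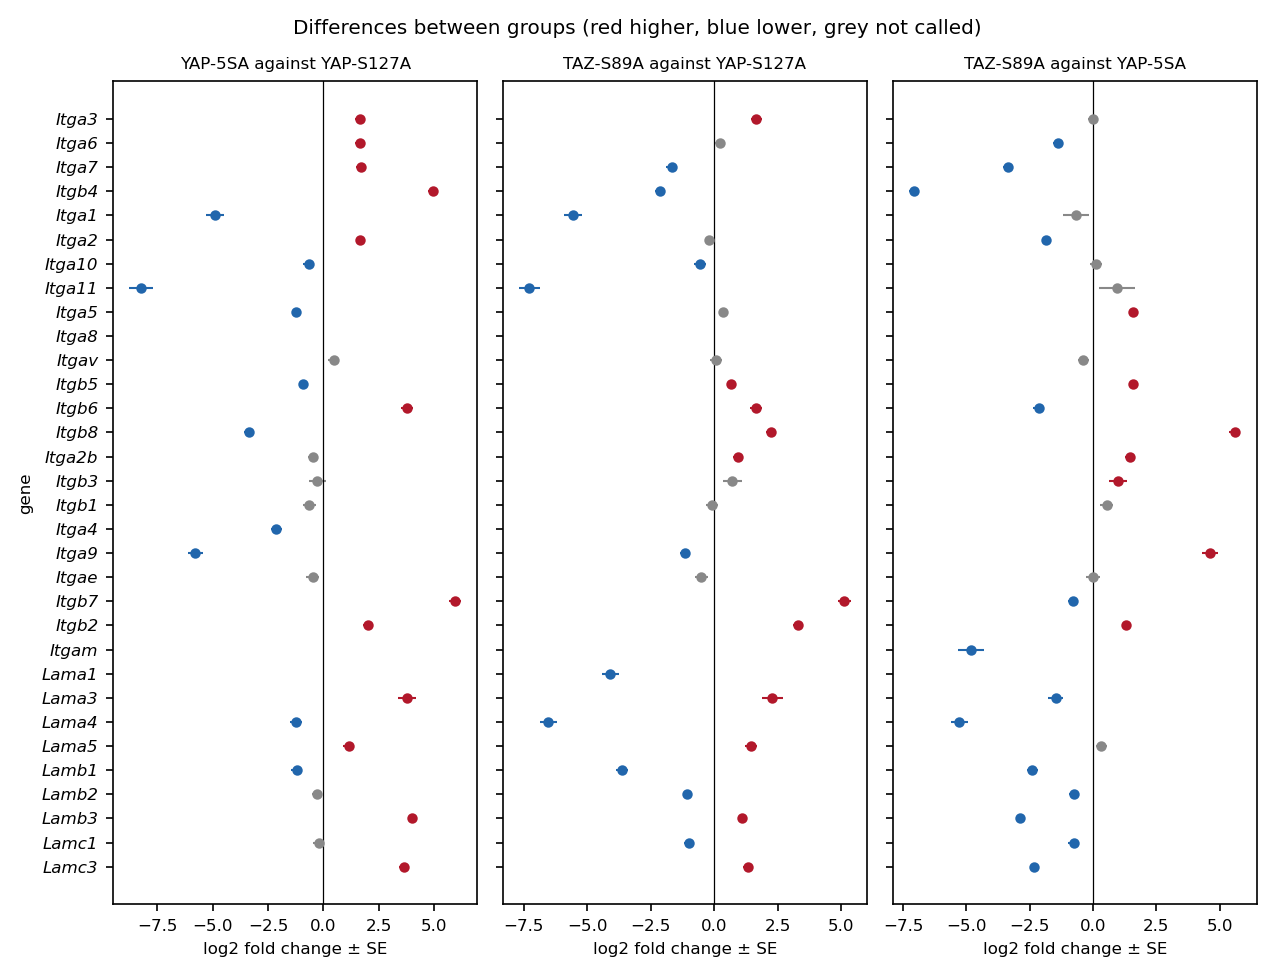
Log2 fold change with its SE (horizontal axis) of the tested genes (vertical axis) in the 3 comparisons, red where called higher, blue where called lower and grey where not called by edgeR's quasi-likelihood test. A gene with at most 3 counts in a group compared is left out there, and the lowest point is Itga11 in YAP-5SA against YAP-S127A at -8.21.

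Among the laminin receptor chains, YAP-5SA libraries held the most Itgb4 and Itga6, and TAZ-S89A libraries the least Itgb4. Itgb4 (Entrez ID 192897, on chromosome 11 from 115974725 to 116008412 of GRCm38, as for all positions here) codes for the beta4 chain, which pairs with alpha6 and anchors epithelial cells through hemidesmosomes. It stood at 18.1, 15.9 and 16.7 CPM in YAP-S127A, at 576, 390.2 and 570.2 in YAP-5SA and at 4.63, 3.9, 3.31, 3.83 and 3.3 in TAZ-S89A. The 3 groups did not overlap, with YAP-5SA first and TAZ-S89A last. The log2 fold change was 4.92 (SE 0.22, adjusted p = 6.46e-10) for YAP-5SA against YAP-S127A, -2.15 (SE 0.17, adjusted p = 1.26e-07) for TAZ-S89A against YAP-S127A and -7.07 (SE 0.20, adjusted p = 3.75e-12) for TAZ-S89A against YAP-5SA. Of the exon bases of Itgb4, 8.41% are shared with B230344G16Rik on the opposite strand, and reads of the pair cannot be told apart if strand was not counted.

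Its partner Itga6 (Entrez ID 16403, on chromosome 2 from 71786886 to 71858427) was at 101, 96.4 and 96.7 CPM in YAP-S127A, at 286, 300.1 and 322 in YAP-5SA and at 96.2, 87.2, 104, 148 and 142 in TAZ-S89A. All YAP-5SA libraries lay above all others, at 1.63 (SE 0.21) against YAP-S127A, and TAZ-S89A was lower than YAP-5SA at -1.39 (SE 0.18). TAZ-S89A and YAP-S127A overlapped, and the gene was not called between them (0.24, SE 0.19, adjusted p = 0.294). Per length, Itga6 averaged 13.1 ± 0.417 over YAP-S127A, 40.2 ± 2.42 over YAP-5SA and 15.6 ± 4.38 over TAZ-S89A in nRPKM, and Itgb4 2.18 ± 0.154 over YAP-S127A, 65.6 ± 13.6 over YAP-5SA and 0.488 ± 0.0639 over TAZ-S89A. Only in YAP-5SA was there more Itgb4 than Itga6. Itga7, the alpha7 chain known from muscle, averaged 13.8 ± 0.852 CPM over YAP-S127A, 44.4 ± 8.6 over YAP-5SA and 4.27 ± 1.13 over TAZ-S89A. Its groups took the same order as those of Itgb4 without overlap, at 1.69 (SE 0.23), -1.67 (SE 0.20) and -3.36 (SE 0.20) for YAP-5SA against YAP-S127A, TAZ-S89A against YAP-S127A and TAZ-S89A against YAP-5SA.

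Itga3 (Entrez ID 16400, on chromosome 11 from 95044475 to 95076844), which pairs with beta1 as a main epithelial receptor for laminins, took another order. It stood at 245, 235 and 223 CPM in YAP-S127A, at 797, 607 and 815 in YAP-5SA and at 682, 635, 615, 879 and 862 in TAZ-S89A. YAP-5SA and TAZ-S89A overlapped and both lay above every YAP-S127A library, at 1.66 (SE 0.23) for YAP-5SA and 1.65 (SE 0.22) for TAZ-S89A against YAP-S127A. Between TAZ-S89A and YAP-5SA it was not called (-0.01, SE 0.20, adjusted p = 0.972), and the sign of that difference changed with the setting. Per length, Itga3 had the largest share of the summed nRPKM of the 18 integrin alpha chains in every library, on average 32.9% ± 0.157 for YAP-S127A, 56.8% ± 2.53 for YAP-5SA and 59.3% ± 0.742 for TAZ-S89A.

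Keratins were higher in YAP-5SA than in YAP-S127A, as were Itgb4 and Itga6. The 8 biliary and epithelial markers summed to 5549 to 8243 CPM in the YAP-5SA libraries, 357 to 438 in YAP-S127A and 352 to 619 in TAZ-S89A. Of 7 tested, Krt7, Krt8, Krt18 and Krt19 were higher and Sox9 and Cdh1 lower in YAP-5SA against YAP-S127A (all genes: 28.2% and 27%). In TAZ-S89A, 1 was higher and 5 lower against YAP-S127A (all genes: 27% and 30.6%). Against YAP-5SA, 1 was higher and 6 lower in TAZ-S89A (all genes: 26.9% and 31%). Krt19, a duct keratin, averaged 55.9 ± 8.47 CPM over YAP-S127A, 1372 ± 339.7 over YAP-5SA and 7.39 ± 2.76 over TAZ-S89A. Epcam, which defines duct and progenitor cells, was at or under 0.178 CPM in every library. The part of these markers in the integrin differences was not tested, and in bulk RNA fewer cells of a type and less RNA per cell cannot be told apart.

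**Figure D3:**
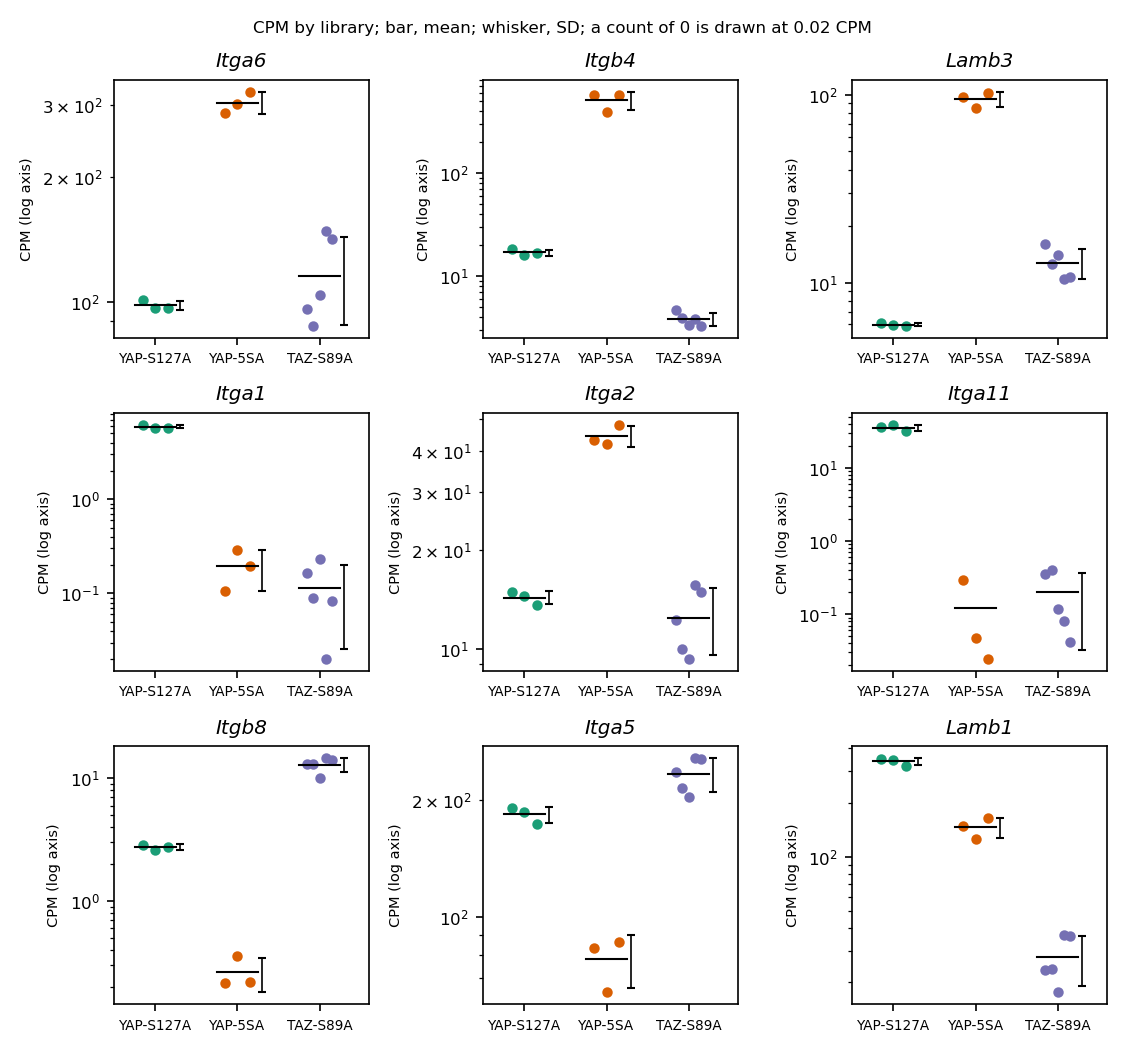
CPM of 9 genes in each library on a log axis (points), by group, with the group mean (bar) and SD (whisker, left out where it exceeds the mean). YAP-5SA stands apart for Itga6, Itgb4, Lamb3 and Itga2, and YAP-S127A for Itga1 and Itga11. The 3 groups do not overlap for Itgb4, Lamb3, Itga5, Itgb8 or Lamb1.

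Of 9 laminin chains tested, 4 were higher and 3 lower in YAP-5SA against YAP-S127A, 4 and 5 in TAZ-S89A against YAP-S127A, and 1 and 7 in TAZ-S89A against YAP-5SA. Of all genes, 28.2% and 27%, 27% and 30.6%, and 26.9% and 31% were called higher and lower there. Lama5 (Entrez ID 16776, on chromosome 2 from 180176373 to 180225904), the alpha chain of many adult epithelial and endothelial basement membranes, made up nearly all laminin alpha mRNA. Its share of the summed nRPKM of the 5 laminin alpha chains was 92.9% ± 0.585 for YAP-S127A, 98.4% ± 0.175 for YAP-5SA and 99.8% ± 0.0499 for TAZ-S89A. It stood at 287, 272 and 256 CPM in YAP-S127A, at 688, 423 and 674 in YAP-5SA and at 883, 819.7, 582, 709 and 729 in TAZ-S89A. YAP-5SA and TAZ-S89A lay above every YAP-S127A library, at 1.13 (SE 0.24, adjusted p = 0.00134) and 1.46 (SE 0.23, adjusted p = 9.78e-05), and overlapped with each other (0.32, SE 0.22, adjusted p = 0.221).

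The other laminin alpha chains were low and took different orders. Lama4, found in vessel and mesenchymal basement membranes, averaged 9.35 ± 0.388 CPM over YAP-S127A, 3.97 ± 0.879 over YAP-5SA and 0.0874 ± 0.0667 over TAZ-S89A, with no overlap between groups. In TAZ-S89A it fell by 6.52 on the log2 scale against YAP-S127A (SE 0.32) and by 5.29 against YAP-5SA (SE 0.33). Lama1, the embryonic laminin alpha chain, had 216 counts over the YAP-S127A libraries, none over YAP-5SA and 19 over TAZ-S89A. With a floor of 3 counts in place of 0 in YAP-5SA, it was 78-fold lower there than in YAP-S127A and 4.49-fold lower than in TAZ-S89A. The counting error of the higher group, with only 19 counts in TAZ-S89A, is not in these values. Lama3, the alpha chain of hemidesmosomal laminin, averaged 0.151 ± 0.0182 CPM over YAP-S127A, 2.12 ± 0.371 over YAP-5SA and 0.79 ± 0.331 over TAZ-S89A. Its groups did not overlap either, and differed by 3.77 (SE 0.41), 2.29 (SE 0.41) and -1.48 (SE 0.29) for YAP-5SA against YAP-S127A, TAZ-S89A against YAP-S127A and TAZ-S89A against YAP-5SA. Lama2, the muscle and nerve chain, had 13, 8 and 17 counts in all over YAP-S127A, YAP-5SA and TAZ-S89A.

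Lamb1 (Entrez ID 16777, on chromosome 12 from 31265146 to 31329644), the widely expressed beta chain, stepped down from YAP-S127A to YAP-5SA to TAZ-S89A. It stood at 352, 344 and 319.6 CPM in YAP-S127A, at 149, 125 and 163 in YAP-5SA and at 23.5, 23.7, 17.6, 36.4 and 36.3 in TAZ-S89A. No library of a group reached the next, at -1.22 (SE 0.25, adjusted p = 0.000927), -3.62 (SE 0.22, adjusted p = 8.66e-09) and -2.41 (SE 0.22, adjusted p = 4.04e-07) for YAP-5SA against YAP-S127A, TAZ-S89A against YAP-S127A and TAZ-S89A against YAP-5SA. Lamb2, the beta chain of neuromuscular and glomerular basement membranes, averaged 339.9 ± 18.3 CPM over YAP-S127A, 277 ± 68.6 over YAP-5SA and 164 ± 15.01 over TAZ-S89A. It was lower in TAZ-S89A, at -1.05 (SE 0.18, adjusted p = 0.000183) against YAP-S127A and -0.76 (SE 0.18, adjusted p = 0.00233) against YAP-5SA, while the YAP groups overlapped (-0.30, SE 0.20, adjusted p = 0.232). Lamb2 lies on chromosome 9, whose tested genes had median log2 fold changes of -0.67 in TAZ-S89A against YAP-S127A and -0.56 in TAZ-S89A against YAP-5SA. The part of the chromosome in the fall of Lamb2 was not tested.

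Lamb3 (Entrez ID 16780, on chromosome 1 from 193294353 to 193343878), the beta chain of hemidesmosomal laminin, was highest in YAP-5SA. It stood at 6.11, 5.94 and 5.89 CPM in YAP-S127A, at 97.8, 84.8 and 102 in YAP-5SA and at 16.05, 12.6, 14.1, 10.4 and 10.8 in TAZ-S89A. The groups did not overlap, with TAZ-S89A between YAP-5SA and YAP-S127A, at 3.99 (SE 0.18, adjusted p = 7.25e-10), 1.10 (SE 0.15, adjusted p = 3.67e-05) and -2.89 (SE 0.14, adjusted p = 6.62e-10) for YAP-5SA against YAP-S127A, TAZ-S89A against YAP-S127A and TAZ-S89A against YAP-5SA. Per length, YAP-S127A libraries held about as much Lamb1 as Lamb2, at 47.7% ± 0.11 and 51.1% ± 0.155 of the summed nRPKM of the 3 beta chains. In YAP-5SA, Lamb1 had 25.5% ± 1.75, Lamb2 50.97% ± 4.01 and Lamb3 23.5% ± 2.33. In TAZ-S89A, Lamb2 dominated with 79.4% ± 1.96, ahead of Lamb1 with 12.4% ± 3.41 and Lamb3 with 8.22% ± 1.76. The sum of the 3 chains was 96.2 ± 5.95 nRPKM for YAP-S127A, 77.4 ± 14.2 for YAP-5SA and 29.9 ± 3.1 for TAZ-S89A.

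The gamma chain Lamc1, shared by most laminins, averaged 219.7 ± 14.5 CPM over YAP-S127A, 189 ± 26.5 over YAP-5SA and 111 ± 31.6 over TAZ-S89A. It was lower in TAZ-S89A, at -0.99 (SE 0.21, adjusted p = 0.0011) against YAP-S127A and -0.77 (SE 0.21, adjusted p = 0.00605) against YAP-5SA, and was not called between the YAP groups (-0.22, SE 0.24, adjusted p = 0.454). Lamc3, a further gamma chain, averaged 0.785 ± 0.158 CPM over YAP-S127A, 9.72 ± 0.992 over YAP-5SA and 1.95 ± 0.244 over TAZ-S89A. YAP-5SA was highest and YAP-S127A lowest without overlap, at 3.63 (SE 0.21), 1.32 (SE 0.20) and -2.31 (SE 0.16) for YAP-5SA against YAP-S127A, TAZ-S89A against YAP-S127A and TAZ-S89A against YAP-5SA. An antisense gene, Gm13441, shares 5.6% of the exon bases of Lamc3. Lama3, Lamb3 and Lamc3 had the same order of groups, YAP-5SA above TAZ-S89A above YAP-S127A, each with no overlap.

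**Figure D4:**
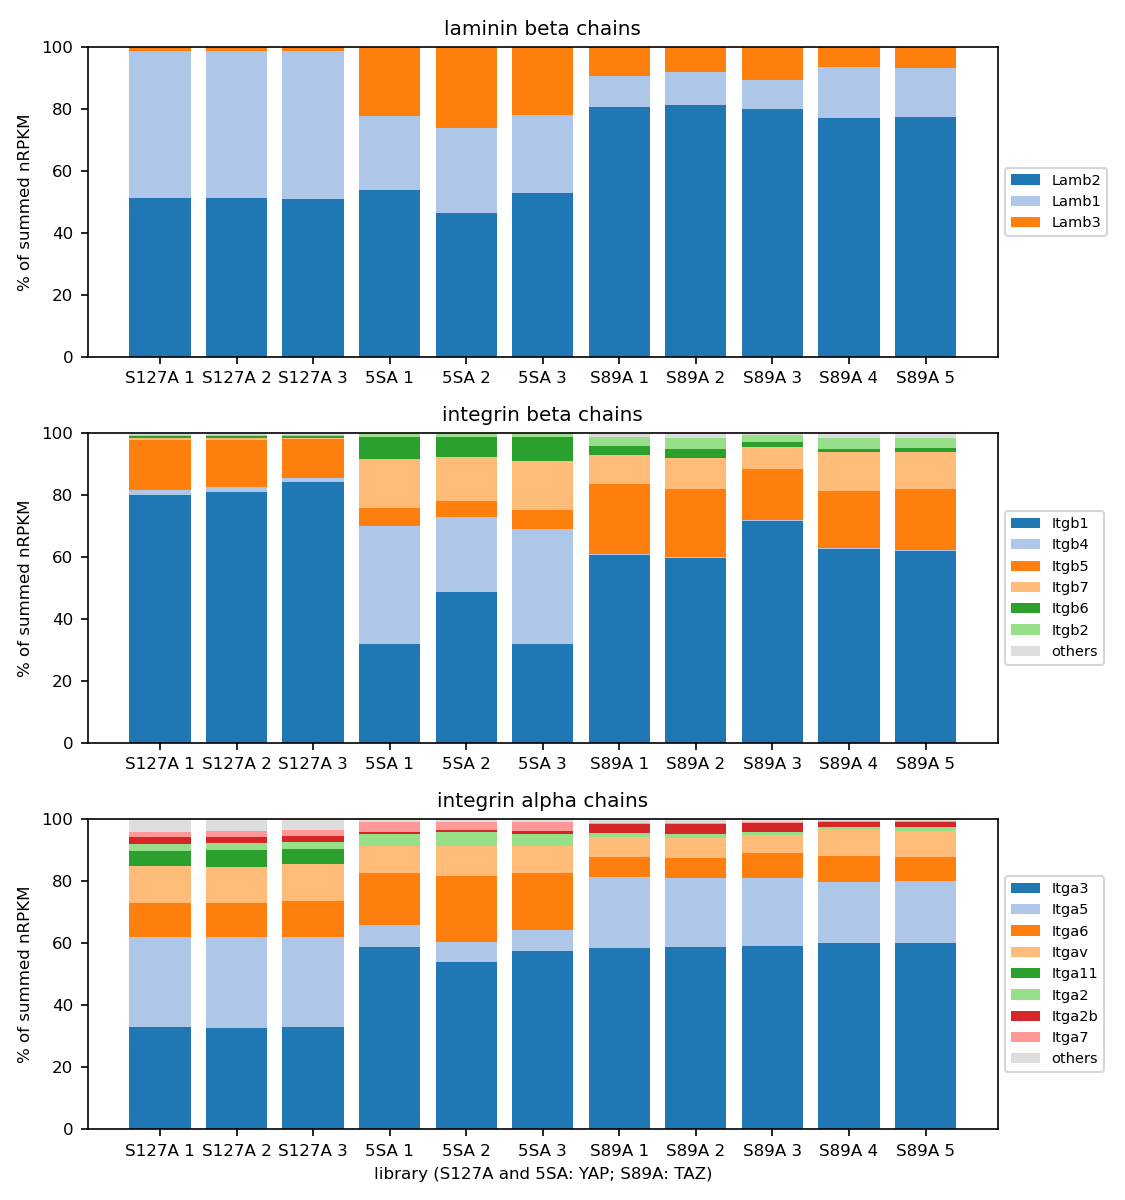
Share of each chain in the summed nRPKM of the laminin beta chains (top), integrin beta chains (middle) and integrin alpha chains (bottom), in percent (vertical axis), for each library (horizontal axis), with chains that never reach 2% pooled. The mean share of Lamb1 goes from 47.7% in YAP-S127A to 12.4% in TAZ-S89A, and that of Itgb4 reaches 33.2% in YAP-5SA.

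The 4 collagen receptor alpha chains did not move together. Itga11 and Itga1, known from fibroblasts and other mesenchymal cells, were highest in YAP-S127A, and Itga2, known from epithelial cells and platelets, was highest in YAP-5SA. Itga11 (Entrez ID 319480, on chromosome 9 from 62677855 to 62783979) stood at 36.5, 38.8 and 31.8 CPM in YAP-S127A, at 0.294, 0.0478 and 0.0242 in YAP-5SA and at 0.354, 0.401, 0.116, 0.0816 and 0.0418 in TAZ-S89A. Every YAP-S127A library lay far above all others, at -8.21 (SE 0.53) for YAP-5SA and -7.27 (SE 0.40) for TAZ-S89A against YAP-S127A. TAZ-S89A and YAP-5SA overlapped and were not called apart (0.94, SE 0.70, adjusted p = 0.268). Leaving out YAP-5SA replicate 1, the highest of its group, gave a call there (adjusted p = 0.0248, range 0.0248 to 0.62 over 23 alternatives).

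Itga1 and Itga2 are neighbours on chromosome 13, at 114958079 to 115101964 and 114833081 to 114932100, and had different patterns. Itga1 was at 6.2, 5.74 and 5.78 CPM in YAP-S127A, at 0.107, 0.287 and 0.194 in YAP-5SA and at 0.165, 0.0892, 0.232, 0 and 0.0835 in TAZ-S89A. It was lower in YAP-5SA (-4.87, SE 0.40) and TAZ-S89A (-5.56, SE 0.36) than in YAP-S127A, and YAP-5SA and TAZ-S89A overlapped (-0.68, SE 0.52, adjusted p = 0.28). Itga2 was at 14.9, 14.5 and 13.6 CPM in YAP-S127A, at 43.2, 42.2 and 48.2 in YAP-5SA and at 12.3, 10.03, 9.31, 15.7 and 14.9 in TAZ-S89A. All YAP-5SA libraries lay above the rest, at 1.63 (SE 0.19) for YAP-5SA against YAP-S127A and -1.84 (SE 0.16) for TAZ-S89A against YAP-5SA. TAZ-S89A and YAP-S127A overlapped (-0.21, SE 0.17, adjusted p = 0.298), but leaving out the second ID series gave a call there at -0.46 (adjusted p = 0.00781, range 0.00562 to 0.752 over 23 alternatives).

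Itga10, a chain known from cartilage, averaged 9.65 ± 2.03 CPM over YAP-S127A, 6.08 ± 1.53 over YAP-5SA and 6.54 ± 1.61 over TAZ-S89A. It was called lower than in YAP-S127A both in TAZ-S89A (adjusted p = 0.0485) and in YAP-5SA (0.0395), though the groups overlapped. The first call was lost in 17 of 23 alternatives (range 0.0243 to 0.203), up to 0.203 without YAP-S127A replicate 1, and also without YAP-S127A replicate 2 (0.125), TAZ-S89A replicate 3 (0.104), 4 (0.086) or 5 (0.0796), or YAP-5SA replicate 1 (0.0503) or 3 (0.0593). The other was lost in 6 (range 0.0173 to 0.156), without YAP-5SA replicate 2 (0.156) or 3 (0.0689) or YAP-S127A replicate 1 (0.148) or 2 (0.0953). Of the exon bases of Itga10, 34.48% are shared with Gm42957, so its counts are uncertain.

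To show the control regions of genes with different orders of groups, the 250 bases before the start of transcription follow for Itga1 (highest in YAP-S127A), Itga2 (highest in YAP-5SA), Itgb5 (highest in TAZ-S89A, described with the alphav integrins) and Itgb1 (not called in any comparison). The windows come from RefSeq on GRCm38.p6, run 5′ to 3′ on the gene's strand and hold no annotated exon. Capitals mark GGAATG, the core of the TEAD motif, searched with its complement CATTCC.
Itga1 upstream window (chr13:115101965-115102214, minus strand): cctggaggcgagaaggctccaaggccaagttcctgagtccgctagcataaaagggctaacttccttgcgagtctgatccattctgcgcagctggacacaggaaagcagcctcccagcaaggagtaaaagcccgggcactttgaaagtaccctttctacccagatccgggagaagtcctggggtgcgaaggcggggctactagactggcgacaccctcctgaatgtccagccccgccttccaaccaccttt
Itga2 upstream window (chr13:114932101-114932350, minus strand): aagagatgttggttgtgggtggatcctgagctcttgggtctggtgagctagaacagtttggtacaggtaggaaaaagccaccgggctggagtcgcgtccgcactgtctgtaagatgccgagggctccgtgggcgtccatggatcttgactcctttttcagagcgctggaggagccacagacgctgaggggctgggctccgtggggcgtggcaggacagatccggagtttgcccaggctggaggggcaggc
Itgb5 upstream window (chr16:33829415-33829664, plus strand): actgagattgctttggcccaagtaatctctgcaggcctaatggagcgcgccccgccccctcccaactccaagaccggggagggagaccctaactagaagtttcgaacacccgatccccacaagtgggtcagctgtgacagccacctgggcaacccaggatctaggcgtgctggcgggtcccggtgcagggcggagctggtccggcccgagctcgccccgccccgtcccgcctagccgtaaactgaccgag
Itgb1 upstream window (chr8:128685404-128685653, plus strand): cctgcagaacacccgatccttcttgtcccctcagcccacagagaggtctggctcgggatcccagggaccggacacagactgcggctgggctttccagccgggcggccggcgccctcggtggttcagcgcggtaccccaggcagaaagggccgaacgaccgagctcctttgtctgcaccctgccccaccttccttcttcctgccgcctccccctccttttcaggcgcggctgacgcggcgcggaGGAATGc
Of these windows, that of Itgb1 held GGAATG, 7 bases before the start. Promoters were given for 23 of the 36 genes (26 starts). GGAATG on either strand was in 3 of the 26, those of Itga10, Itgb1 and Lamb3, and in 12.6% of all 32851 windows of this length. The AP-1 motif TGANTCA, also on either strand, was in 1, that of Itgax, and in 6.75% of all. CG pairs numbered 10 in the window of Itga1, 12 in that of Itga2, 18 in that of Itgb5 and 21 in that of Itgb1, beside a median of 6 over all windows.

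Summed stellate and mesenchymal markers were highest in YAP-S127A, as were Itga1 and Itga11. The 8 markers summed to 4312 to 4676 CPM in the YAP-S127A libraries, 269 to 371 in YAP-5SA and 317 to 414 in TAZ-S89A. Of 6 tested, Pdgfra, Pdgfrb, Acta2, Col1a1 and Col3a1 were lower in both other groups than in YAP-S127A, and Reln was higher in TAZ-S89A. Of all genes, 27% were lower in YAP-5SA than in YAP-S127A, and 30.6% were lower and 27% higher in TAZ-S89A. In TAZ-S89A against YAP-5SA, 4 were higher and 2 lower (all genes: 26.9% and 31%), with a median log2 fold change of 2.53. Itga1 and Itga11 were not called there. Pdgfrb, a pericyte and stellate cell receptor, averaged 474 ± 31.3 CPM over YAP-S127A, 1.12 ± 0.112 over YAP-5SA and 268 ± 37.2 over TAZ-S89A. Lrat, which defines quiescent stellate cells, had no count in YAP-S127A or TAZ-S89A. The collagens bound by these integrins took separate orders. Col1a1 averaged 2950.1 ± 168 CPM over YAP-S127A, 322 ± 57.2 over YAP-5SA and 30.98 ± 3.57 over TAZ-S89A, and Col1a2 averaged 2274 ± 117 CPM over YAP-S127A, 16.2 ± 1.56 over YAP-5SA and 2219 ± 767 over TAZ-S89A. The part of these markers in the integrin differences was not tested.

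The fibronectin receptor chain Itga5 (Entrez ID 16402, on chromosome 15 from 103344286 to 103366791) was lowest in YAP-5SA. It stood at 189.8, 186 and 174 CPM in YAP-S127A, at 83.6, 64.4 and 86.8 in YAP-5SA and at 235, 213, 203, 255 and 254 in TAZ-S89A. Every YAP-5SA library lay below all others, at -1.23 (SE 0.17, adjusted p = 4.18e-05) for YAP-5SA against YAP-S127A and 1.57 (SE 0.16, adjusted p = 1.72e-06) for TAZ-S89A against YAP-5SA. TAZ-S89A lay above YAP-S127A without overlap and was not called (0.34, SE 0.16, adjusted p = 0.0749). Leaving out TAZ-S89A replicate 3 (adjusted p = 0.0249) or YAP-5SA replicate 2 (0.0473) gave a call there (range 0.00882 to 0.208 over 23 alternatives). Its ligand gene Fn1, fibronectin, averaged 4124 ± 228 CPM over YAP-S127A, 269 ± 38.9 over YAP-5SA and 1490.5 ± 218 over TAZ-S89A, and was lower in YAP-5SA (-3.94, SE 0.28) and TAZ-S89A (-1.47, SE 0.22) than in YAP-S127A.

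Itga8, the alpha8 chain known from mesenchymal and smooth muscle cells, was found almost only in YAP-S127A. It had 437 counts over the YAP-S127A libraries, 3 over YAP-5SA and 1 over TAZ-S89A. Scaled to library size, the ratio of pooled counts of YAP-S127A was 158 to YAP-5SA (95% interval 53.6 to 768) and 668 to TAZ-S89A (119 to 26400), counting error only. The antisense gene E030013I19Rik shares 6.4% of its exon bases. Npnt, nephronectin, the ligand of alpha8beta1, was highest in YAP-5SA instead and averaged 68.96 ± 0.295 CPM over YAP-S127A, 320.2 ± 6.68 over YAP-5SA and 32.8 ± 2.89 over TAZ-S89A.

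Itgav (Entrez ID 16410, on chromosome 2 from 83722303 to 83806917), the common alpha chain of the alphav integrins, split within TAZ-S89A. It stood at 138, 130.1 and 126 CPM in YAP-S127A, at 183, 168 and 189 in YAP-5SA and at 114, 107, 96.2, 189 and 186 in TAZ-S89A. TAZ-S89A replicates 4 and 5 lay at the level of YAP-5SA, and replicates 1 to 3 below every YAP-S127A library. It was not called in any comparison, with adjusted p of 0.137, 0.784 and 0.158 for YAP-5SA against YAP-S127A, TAZ-S89A against YAP-S127A and TAZ-S89A against YAP-5SA. Leaving out the second ID series gave calls in all 3, at 0.42 (adjusted p = 0.00944, range 0.00259 to 0.255 over 23 alternatives), -0.33 (0.0363, 0.025 to 0.977) and -0.75 (0.000188, 4.2e-05 to 0.392).

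Other members also differed between the ID series within TAZ-S89A. Replicates 4 and 5 lay above all of replicates 1 to 3 for 13 of 32 tested members (all genes: 23.9%) and below them for 7 (all genes: 29.4%), with no test. The ratio of mean CPM was 1.78 for Itgav, 2.27 for Itgb3, 2.02 for Lama3, 1.68 for Lamb1, 1.64 for Lamc1, 1.52 for Itga6 and 1.51 for Itgb7. It was 0.539 for Itgb6, 0.663 for Itga2b, 0.668 for Itga7 and 0.743 for Lamb3. The lowest ratios were those of Lama4, Itga11 and Itga1, at 0.158, 0.212 and 0.258, from few counts in TAZ-S89A. Within a gene, these gaps did not change the order of TAZ-S89A and the YAP groups for Lama3, Lamb1, Lamb3, Lamc1, Itga7, Itgb6 or Itgb7.

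Of the beta partners of alphav, Itgb5, Itgb6 and Itgb8 were called in all 3 comparisons. Itgb6 (Entrez ID 16420, on chromosome 2 from 60598292 to 60722603), the epithelial chain of the TGF-beta activating integrin alphavbeta6, was at 6.4, 6.53 and 7.36 CPM in YAP-S127A, at 91.02, 88.5 and 99.4 in YAP-5SA and at 26.5, 24.97, 25.5, 12.8 and 14.8 in TAZ-S89A. The groups did not overlap, with YAP-5SA above TAZ-S89A above YAP-S127A, at 3.78 (SE 0.27, adjusted p = 4.86e-08), 1.63 (SE 0.23, adjusted p = 4.13e-05) and -2.15 (SE 0.21, adjusted p = 8.34e-07) for YAP-5SA against YAP-S127A, TAZ-S89A against YAP-S127A and TAZ-S89A against YAP-5SA. Itgb8 (Entrez ID 320910, on chromosome 12 from 119162803 to 119238276), a further TGF-beta activating chain, took another order. It was at 2.88, 2.59 and 2.78 CPM in YAP-S127A, at 0.214, 0.359 and 0.218 in YAP-5SA and at 13.2, 12.97, 9.98, 14.5 and 14.03 in TAZ-S89A. TAZ-S89A lay above YAP-S127A and YAP-S127A above YAP-5SA, again with no overlap, at -3.36 (SE 0.24, adjusted p = 6.35e-08), 2.23 (SE 0.18, adjusted p = 1.17e-07) and 5.59 (SE 0.23, adjusted p = 1.22e-10) for the same comparisons. Itgb5 (Entrez ID 16419, on chromosome 16 from 33829665 to 33949338), the vitronectin receptor chain, averaged 83.3 ± 2.71 CPM over YAP-S127A, 44.5 ± 2.98 over YAP-5SA and 133 ± 11.3 over TAZ-S89A. Its groups had the order of Itgb8 and did not overlap, at -0.90 (SE 0.14, adjusted p = 7.19e-05), 0.67 (SE 0.12, adjusted p = 0.000372) and 1.58 (SE 0.13, adjusted p = 1.34e-07). Per length, Itgb5 was above Itgb6, Itgb8 and Itgb3 in YAP-S127A and TAZ-S89A, at 20.8 ± 0.886 and 33.3 ± 3.18 nRPKM, while YAP-5SA had 14.1 ± 0.883 nRPKM of Itgb6 and 11.1 ± 0.76 of Itgb5.

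Itgb3 and Itga2b, the chains of the platelet fibrinogen receptor, were low. Itga2b averaged 11.2 ± 0.924 CPM over YAP-S127A, 7.97 ± 1.69 over YAP-5SA and 21.7 ± 4.88 over TAZ-S89A, and was higher in TAZ-S89A at 0.95 (SE 0.20) against YAP-S127A and 1.45 (SE 0.20) against YAP-5SA. Between the YAP groups it was not called (-0.49, SE 0.22, adjusted p = 0.0665), and 8 of 23 alternatives gave a call (range 0.0106 to 0.239), among them leaving out TAZ-S89A replicate 4 (0.043) or 5 (0.045). Itgb3 averaged 3.36 ± 0.392 CPM over YAP-S127A, 2.78 ± 0.503 over YAP-5SA and 5.62 ± 2.84 over TAZ-S89A, and was called higher in TAZ-S89A than in YAP-5SA (0.996, SE 0.36, adjusted p = 0.0295). That call was lost without TAZ-S89A replicate 4 (0.054), YAP-5SA replicate 1 (0.0709), YAP-5SA replicate 2 (0.114) or the second ID series (0.166), in a range from 0.00163 to 0.166. Against YAP-S127A it was not called (0.0996), but leaving out TAZ-S89A replicate 3 gave a call (0.0076, range 0.0076 to 0.678 over 23 alternatives). The 4 platelet and megakaryocyte markers summed to 2.25 to 3.19 CPM for YAP-S127A, 41.97 to 57.5 for YAP-5SA and 5.79 to 7.18 for TAZ-S89A, mostly Ppbp, and Gp9 was at or under 0.0656 CPM in every library. The part of these markers in Itga2b and Itgb3 was not tested.

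Ligands of these receptors differed as well. Spp1, osteopontin, was highest in TAZ-S89A and averaged 326 ± 43.4 CPM over YAP-S127A, 203 ± 48.7 over YAP-5SA and 2737 ± 921 over TAZ-S89A. Ltbp1, which holds latent TGF-beta in the matrix, was also highest in TAZ-S89A and averaged 79.8 ± 1.11 CPM over YAP-S127A, 35.3 ± 3.83 over YAP-5SA and 239 ± 56.9 over TAZ-S89A. Tgfb1, the latent factor that alphavbeta6 and alphavbeta8 activate, averaged 21.1 ± 1.94 CPM over YAP-S127A, 20.9 ± 1.08 over YAP-5SA and 24.9 ± 5.49 over TAZ-S89A, and was not called in any comparison. Vtn, vitronectin, had 0, 4 and 2 counts over YAP-S127A, YAP-5SA and TAZ-S89A. Postn, periostin, a ligand of alphav integrins, averaged 23.1 ± 1.96 CPM over YAP-S127A, 0.307 ± 0.0361 over YAP-5SA and 29.7 ± 4.6 over TAZ-S89A. In the list of 26 further integrin ligands, 20 were tested, and in YAP-5SA against YAP-S127A 5 were higher and 13 lower. TAZ-S89A had 5 higher and 12 lower against YAP-S127A, and 9 higher and 8 lower against YAP-5SA. Among all genes, the shares higher and lower were 28.2% and 27%, 27% and 30.6%, and 26.9% and 31% in these comparisons. Median log2 fold changes were -2.34, -1.12 and 0.23 for YAP-5SA against YAP-S127A, TAZ-S89A against YAP-S127A and TAZ-S89A against YAP-5SA, beside the values near 0 of all genes.

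Beta7 mRNA was high in YAP-5SA and TAZ-S89A, where its alpha partner Itga4 was lower than in YAP-S127A. Itgb7 (Entrez ID 16421, on chromosome 15 from 102215994 to 102233405), a chain known from gut-homing lymphocytes, stood at 1.58, 2.001 and 1.31 CPM in YAP-S127A, at 100.1, 95.2 and 102 in YAP-5SA and at 45.9, 43.9, 51.7, 74.5 and 68.2 in TAZ-S89A. The groups did not overlap, with YAP-5SA above TAZ-S89A above YAP-S127A, at 5.93 (SE 0.26, adjusted p = 4.82e-10), 5.13 (SE 0.24, adjusted p = 5.49e-10) and -0.81 (SE 0.18, adjusted p = 0.00144) for YAP-5SA against YAP-S127A, TAZ-S89A against YAP-S127A and TAZ-S89A against YAP-5SA. Itga4 (Entrez ID 16401, on chromosome 2 from 79255426 to 79333114) was at 6.49, 6.14 and 6.56 CPM in YAP-S127A and 1.79, 1.08 and 1.55 in YAP-5SA (-2.12, SE 0.24), and none of the 5 TAZ-S89A libraries held a count. With a floor of 3 counts in place of 0 in TAZ-S89A, it was 364-fold lower there than in YAP-S127A and 82.8-fold lower than in YAP-5SA. The other partner of beta7, Itgae, the alphaE chain, averaged 2.002 ± 0.696 CPM over YAP-S127A, 1.44 ± 0.216 over YAP-5SA and 1.41 ± 0.387 over TAZ-S89A, and was not called in any comparison, with adjusted p of 0.191, 0.129 and 0.964 for YAP-5SA against YAP-S127A, TAZ-S89A against YAP-S127A and TAZ-S89A against YAP-5SA. Per length, Itgb7 had 15.3% ± 0.957 of the summed integrin beta nRPKM in YAP-5SA and 10.3% ± 2.18 in TAZ-S89A. In TAZ-S89A its level was 17.6 ± 4.94 nRPKM, and that of Itgae 0.247 ± 0.064.

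Ligands of the alpha4, alpha9 and alphaE chains were measured too. Vcam1, a cell-surface ligand of alpha4 integrins, averaged 63.6 ± 2.84 CPM over YAP-S127A, 116 ± 18.97 over YAP-5SA and 80.5 ± 8.48 over TAZ-S89A. Madcam1, the gut ligand of alpha4beta7, had too few counts to test. Cdh1, E-cadherin, the ligand of alphaEbeta7, averaged 11.99 ± 0.84 CPM over YAP-S127A, 1.53 ± 0.188 over YAP-5SA and 0.405 ± 0.254 over TAZ-S89A. Itga9, which binds tenascin and osteopontin with beta1, averaged 6.08 ± 0.679 CPM over YAP-S127A, 0.107 ± 0.075 over YAP-5SA and 2.75 ± 0.38 over TAZ-S89A. Its groups did not overlap, with YAP-S127A above TAZ-S89A above YAP-5SA, at -5.78 (SE 0.33), -1.15 (SE 0.20) and 4.63 (SE 0.32) for YAP-5SA against YAP-S127A, TAZ-S89A against YAP-S127A and TAZ-S89A against YAP-5SA. Like Lamb2, Itga9 lies on chromosome 9, whose tested genes had a median of -0.67 in TAZ-S89A against YAP-S127A. Against YAP-5SA the median in TAZ-S89A was -0.56. The part of the chromosome in the level of Itga9 was not tested. The ligand gene of Itga9, Tnc, tenascin C, averaged 138 ± 8.46 CPM over YAP-S127A, 9.28 ± 1.2 over YAP-5SA and 10.8 ± 3.16 over TAZ-S89A, and was not called between TAZ-S89A and YAP-5SA (0.22, SE 0.20, adjusted p = 0.379).

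Itgb2 (Entrez ID 16414, on chromosome 10 from 77530329 to 77565708), the common beta chain of leukocyte integrins, was highest in TAZ-S89A. It stood at 1.63, 1.8 and 2.17 CPM in YAP-S127A, at 6.58, 8.1 and 7.68 in YAP-5SA and at 14.7, 16.6, 16.97, 22.7 and 20.7 in TAZ-S89A. The groups did not overlap, with YAP-5SA between TAZ-S89A and YAP-S127A, at 1.999 (SE 0.20, adjusted p = 1.39e-06), 3.29 (SE 0.19, adjusted p = 5.18e-09) and 1.29 (SE 0.17, adjusted p = 1.58e-05) for YAP-5SA against YAP-S127A, TAZ-S89A against YAP-S127A and TAZ-S89A against YAP-5SA. Its alpha partners were close to 0. Over the 5 TAZ-S89A libraries, Itgal had 5 counts, Itgam 4, Itgax 4 and Itgad 1, beside 3004 for Itgb2. In YAP-5SA, Itgam, the macrophage chain alphaM, had 91 counts, against 1 in YAP-S127A. The ratio of these pooled counts, scaled to library size, was 84 (95% interval 14.7 to 3360). Exons of Itgam share 70.04% of their bases with Gm49368, so its counts are uncertain.

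Summed leukocyte markers were highest in YAP-5SA and lowest in TAZ-S89A. The 10 markers summed to 13.3 to 14.1 CPM in the YAP-S127A libraries, 38.99 to 44.2 in YAP-5SA and 7.93 to 9.13 in TAZ-S89A. Of 7 tested, 6 were higher in YAP-5SA than in YAP-S127A (all genes: 28.2%). In TAZ-S89A, 0 were higher and 1 lower against YAP-S127A (all genes: 27% and 30.6%). Against YAP-5SA, 0 were higher and 6 lower in TAZ-S89A (all genes: 26.9% and 31%). Ptprc (CD45), which defines leukocytes, averaged 0.33 ± 0.056 CPM over YAP-S127A, 0.181 ± 0.0536 over YAP-5SA and 0.194 ± 0.121 over TAZ-S89A. In YAP-5SA, where Itgam was found, the macrophage genes Csf1r at 28.2 ± 3.27 CPM and C1qa at 2.5 ± 0.69 were higher than in YAP-S127A at 7.6 ± 0.351 and 0.0185 ± 0.0321. Adgre1, which defines macrophages, had 25 counts over YAP-5SA and none in YAP-S127A or TAZ-S89A. The part of these markers in the levels of Itgb2 and Itgam was not tested.

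Itgb1 (Entrez ID 16412, on chromosome 8 from 128685654 to 128733579), the partner of most alpha chains above, was the main integrin beta chain per length in YAP-S127A and TAZ-S89A, with 81.7% ± 2.2 and 63.3% ± 4.77 of the summed beta nRPKM. In YAP-5SA it had 31.9, 48.6 and 32% in replicates 1 to 3, and Itgb4 had 38.1, 24.4 and 37.2%, so Itgb4 led in replicates 1 and 3. Itgb1 stood at 543, 558 and 686 CPM in YAP-S127A, at 318, 512 and 323 in YAP-5SA and at 454, 406, 817, 580.2 and 549.9 in TAZ-S89A. The YAP groups did not overlap with each other and both overlapped with TAZ-S89A. It was not called in any comparison, at -0.63 (SE 0.29, adjusted p = 0.0757), -0.09 (SE 0.25, adjusted p = 0.79) and 0.55 (SE 0.26, adjusted p = 0.0867) for YAP-5SA against YAP-S127A, TAZ-S89A against YAP-S127A and TAZ-S89A against YAP-5SA. YAP-5SA was called lower than YAP-S127A in 8 of 23 alternatives (range 0.00585 to 0.224), among them leaving out YAP-5SA replicate 2 (0.0261), TAZ-S89A replicate 3 (0.0459) or both (0.00585). TAZ-S89A was called higher than YAP-5SA in 4 (range 0.0162 to 0.274), among them leaving out YAP-5SA replicate 2 (0.0282).

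The libraries with the highest Itgb1 in their groups were YAP-S127A replicate 3, YAP-5SA replicate 2 and TAZ-S89A replicate 3. In YAP-5SA replicate 2, Itgb4 at 390.2 CPM, Lama5 at 423, Lamb2 at 198 and Itga3 at 607 were each the lowest of the 3 YAP-5SA libraries. The GC content of the longest transcript was 60%, 59.9%, 58.8% and 57.9% for these genes and 44.9% for Itgb1. Across 11397 genes, the log2 deviation of this library from its group had a correlation of -0.34 with GC content, over genes that share their library. The tenth of genes with the highest GC deviated by a median of -0.44. The correlation was 0.40 in YAP-5SA replicate 1 and 0.22 in replicate 3, with medians of 0.17 and 0.27. In YAP-S127A the correlations were 0.16, 0.24 and -0.26 for replicates 1 to 3, with a median of -0.15 in replicate 3. In TAZ-S89A they ran from -0.07 in replicate 3, with a median of -0.30, to 0.06 in replicate 5. Without YAP-5SA replicate 2 and TAZ-S89A replicate 3, the log2 fold change in YAP-5SA against YAP-S127A was 5.09 for Itgb4 and 1.33 for Lama5, and that of Lamb2 in TAZ-S89A against YAP-S127A was -0.95. The part of GC content in these levels was not tested.

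Inside the cell, adaptors such as talins, kindlins and parvins link integrins to actin. Of 33 listed, 32 were tested. TAZ-S89A had 17 lower and 4 higher against YAP-S127A, and 18 lower and 4 higher against YAP-5SA, with medians of -0.47 and -0.51. In YAP-5SA against YAP-S127A, 10 were higher and 9 lower (median 0.12). In all, 65.6%, 68.8% and 59.4% of those tested were called in these comparisons, beside 57.6%, 57.9% and 55.2% of all genes. Of all genes, 27% and 30.6% were higher and lower in TAZ-S89A against YAP-S127A, 26.9% and 31% in TAZ-S89A against YAP-5SA and 28.2% and 27% in YAP-5SA against YAP-S127A, with medians of -0.03, -0.04 and 0.01. Fermt2, the kindlin that activates beta1 and beta3 integrins, averaged 98.8 ± 6.17 CPM over YAP-S127A, 55.7 ± 8.52 over YAP-5SA and 23.97 ± 6.19 over TAZ-S89A. The parvin gene Parvg averaged 12.7 ± 1.07 CPM over YAP-S127A, 10.4 ± 2.33 over YAP-5SA and 1.67 ± 0.608 over TAZ-S89A. Kank1, a protein of the rim of adhesions, averaged 39.5 ± 2.52 CPM over YAP-S127A, 18.5 ± 3.08 over YAP-5SA and 2.76 ± 0.909 over TAZ-S89A, and its relative Kank2 averaged 135 ± 6.88 CPM over YAP-S127A, 217 ± 29.01 over YAP-5SA and 43.8 ± 4.27 over TAZ-S89A. All 4 of these were lower in TAZ-S89A than in both YAP groups. Tgfb1i1 (Hic-5), a paxillin relative, averaged 153 ± 6.92 CPM over YAP-S127A, 3.01 ± 0.607 over YAP-5SA and 2.03 ± 0.513 over TAZ-S89A. The tensin gene Tns1 averaged 244 ± 12.3 CPM over YAP-S127A, 18.04 ± 2.5 over YAP-5SA and 125 ± 19.4 over TAZ-S89A, and Zyx, zyxin of focal adhesions, averaged 191 ± 10.5 CPM over YAP-S127A, 82.04 ± 11.6 over YAP-5SA and 137 ± 22.7 over TAZ-S89A, and both were lowest in YAP-5SA. Ptk2b (Pyk2), a kinase related to FAK, was highest in YAP-5SA (2.12, SE 0.18 against YAP-S127A) and averaged 22.8 ± 0.136 CPM over YAP-S127A, 99.4 ± 19.4 over YAP-5SA and 25.2 ± 3.88 over TAZ-S89A. Tln2, Fermt3, Vcl and Bcar1 were not called in any comparison.

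Laminin is joined in the basement membrane by collagen IV, nidogens and heparan sulfate proteoglycans. Of 23 such partners, 19 were tested. In TAZ-S89A against YAP-S127A, 2 were higher and 12 lower (median -0.96), in TAZ-S89A against YAP-5SA 4 and 9 (-0.28), and in YAP-5SA against YAP-S127A 3 and 12 (-0.90). All genes gave 27% and 30.6%, 26.9% and 31%, and 28.2% and 27% in the same order. Nid1, nidogen, which joins laminin to collagen IV, averaged 645 ± 29.9 CPM over YAP-S127A, 667 ± 81.6 over YAP-5SA and 3.43 ± 1.04 over TAZ-S89A. It was almost lost in TAZ-S89A, at -7.57 (SE 0.27, adjusted p = 2.64e-11) against YAP-S127A and -7.62 (SE 0.27, adjusted p = 2.16e-11) against YAP-5SA, and was not called between the YAP groups (0.05, SE 0.25, adjusted p = 0.885). The collagen IV chain gene Col4a1 averaged 951 ± 60.2 CPM over YAP-S127A, 415 ± 63.3 over YAP-5SA and 224 ± 68.3 over TAZ-S89A, and Col4a6 averaged 17.3 ± 1.99 CPM over YAP-S127A, 2.42 ± 0.478 over YAP-5SA and 0.11 ± 0.046 over TAZ-S89A. Both stepped down from YAP-S127A to YAP-5SA to TAZ-S89A, as Lamb1 did. Col15a1 averaged 115 ± 13.9 CPM over YAP-S127A, 0.175 ± 0.0484 over YAP-5SA and 0.366 ± 0.0623 over TAZ-S89A. Its relative Col18a1 took the reverse order of Lamb1 and averaged 54.9 ± 3.57 CPM over YAP-S127A, 129.6 ± 19.1 over YAP-5SA and 322 ± 16.9 over TAZ-S89A. Ntn4, a netrin that binds laminin, was highest in YAP-5SA and averaged 9.55 ± 0.559 CPM over YAP-S127A, 27.3 ± 2.7 over YAP-5SA and 4.16 ± 0.594 over TAZ-S89A.

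The last list held hemidesmosome proteins and laminin receptors other than integrins, with 12 of 13 tested. In YAP-5SA against YAP-S127A, 6 were higher and 1 lower (median 0.49), in TAZ-S89A against YAP-S127A 2 and 5 (-0.56), and in TAZ-S89A against YAP-5SA 0 and 6 (-0.56). The shares called, 58.3%, 58.3% and 50%, were near or below those of all genes, 55.2%, 57.6% and 57.9%. By direction, all genes gave 28.2% and 27%, 27% and 30.6%, and 26.9% and 31%. Bcam (Lutheran), a receptor for laminins with the alpha5 chain, had the order of Itgb4 and averaged 12.1 ± 0.349 CPM over YAP-S127A, 151 ± 12.4 over YAP-5SA and 0.961 ± 0.114 over TAZ-S89A. It differed by 3.64 (SE 0.14), -3.67 (SE 0.13) and -7.31 (SE 0.14) for YAP-5SA against YAP-S127A, TAZ-S89A against YAP-S127A and TAZ-S89A against YAP-5SA. Plec, plectin, which links beta4 to keratin filaments, was lower in TAZ-S89A than in YAP-S127A (-0.59, SE 0.22, adjusted p = 0.0308) and was not called between the YAP groups (-0.10, SE 0.25, adjusted p = 0.753). Col17a1, a transmembrane collagen of hemidesmosomes, was not tested and reached no more than 0.204 CPM in any library. The tetraspanin gene Cd9 averaged 218 ± 27.9 CPM over YAP-S127A, 479 ± 99.7 over YAP-5SA and 95.1 ± 14.1 over TAZ-S89A, and Cd81 averaged 106 ± 9.74 CPM over YAP-S127A, 327 ± 52.4 over YAP-5SA and 89.5 ± 22 over TAZ-S89A. Sdc1, syndecan-1, was lowest in YAP-S127A and averaged 67.5 ± 10.4 CPM over YAP-S127A, 343 ± 107 over YAP-5SA and 273 ± 126 over TAZ-S89A.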

How the data were processed

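PolyA RNA of 11 libraries was sequenced. The deposited tables hold, per the file headers, a count of uniquely aligned reads for each Entrez gene and nRPKM, an RPKM the authors adjusted by a size factor. Reads were aligned with GSNAP to GRCm38, per the submitters' processing notes. How strand was handled, the counting tool and versions were not given in the sources used here. Symbols and positions came from RefSeq on GRCm38.p6 (31049 of 36528 IDs). Unmatched IDs, with 2.91% of counts, stayed in the totals. Exon overlaps came from GENCODE M21.

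Groups follow the mutation label, and replicates are numbered in accession order. Counts were tested with edgeR 4.0.16 in R 4.3.3 (filterByExpr by group, TMM, robust quasi-likelihood fit of all 11 libraries, group as the only term), which kept 18224 genes. The procedure was tested on simulated data. Each SE was derived from the test, as the absolute log2 fold change divided by the square root of the F statistic. The 23 alternatives were RLE factors, upper-quartile factors, DESeq2 1.42.0, voom from limma 3.58.1, no low-count filter, a strict one (1 CPM in 3 libraries and average log2 CPM of 1), only the groups compared, the ID series as a covariate, its second part left out, close TAZ-S89A libraries summed (replicates 1 with 2 and 4 with 5), a threshold of 1 on the absolute log2 fold change, and each library left out. Leaving out YAP-5SA replicate 2 with TAZ-S89A replicate 3 was added after the data were seen. Intervals cover counting error only, and ratios to a floor leave out the counting error of the higher group.

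The members and lists were chosen with earlier results of these data known. All members are reported. From each list the rule takes up to 4 called genes per comparison with the largest fold change, an average log2 CPM of at least 2 and no overlap between groups. List genes and markers named outside it, among them Npnt, Vcam1, Madcam1, Tgfb1, Ltbp1, Vtn, Cdh1, Col4a1, Plec, Tln2, Fermt3, Vcl, Bcar1 and Col17a1, were chosen after their values were seen. Some genes taken by the rule are not described above and follow with their log2 fold changes. In TAZ-S89A against YAP-S127A they were Fbn1 (-3.77) and Sdc4 (1.06), and in TAZ-S89A against YAP-5SA Fbln1 (-2.68) and Dag1 (-0.835). In YAP-5SA against YAP-S127A they were Fbln1 (2.53) and Col7a1 (-1.80).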

Additional observations from a re-analysis of the deposited data

Results flagged for a closer look

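In TAZ-S89A, the only group with more than 3 libraries, 2 of 31 members had a library far from the rest by Dixon's ratio of gap to range, and chance alone gives about 1 in 20. Lamc3 in replicate 3 was at 2.38 CPM, with the next library at 1.91 and the lowest at 1.76. All 5 stayed below every YAP-5SA library and above every YAP-S127A library. Itga8 in replicate 1 was at 0.0236 CPM, from its only count in the group, and the other 4 libraries had 0.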

How the results depend on the processing

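No paired analysis was possible because the labels give no replicate numbers. Over 23 alternatives, the members called stayed within 1.5 times the count reported, at 11 to 14 higher and 9 to 14 lower in YAP-5SA against YAP-S127A, 9 to 13 and 9 to 14 in TAZ-S89A against YAP-S127A, and 7 to 9 and 12 to 16 in TAZ-S89A against YAP-5SA. Of all genes, 10061, 10505 and 10545 were called in these comparisons, which asking for a log2 fold change of at least 1 lowered to 6269, 5873 and 6164 by construction. Leaving out single libraries gave 8778 to 10724, 9020 to 10920 and 9451 to 11154. Of 72 calls on members, 62 held in each of the 21 to 23 alternatives that gave a value for the gene, and 7 were lost only to that threshold. Of the other 24 results, 9 were called in at least 1 with the sign unchanged, and Itgav in TAZ-S89A against YAP-S127A with the sign changed. The sign changed for 6 results, none called as reported. In TAZ-S89A against YAP-5SA, Itga3 (reported -0.010) was at 0.015 with RLE, 0.062 with upper-quartile factors, 0.015 with DESeq2, 0.004 with voom, 0.023 with no filter, 0.015 with the strict one and 0.036 with only the groups compared. Itgae (reported -0.018) was at 0.049 with upper-quartile factors, 0.006 with no filter, 0.018 with only the groups compared, 0.069 with the ID series as covariate, 0.082 without its second part and 0.059 without YAP-5SA replicate 2 and TAZ-S89A replicate 3. In TAZ-S89A against YAP-S127A, with the ID series as covariate and without its second part, Itga6 (reported 0.238) was at -0.034 and -0.048, and Itgav (reported 0.077) at -0.312 and -0.328, the latter called both times. Itgb1 (reported -0.086) was at 0.065 with close TAZ-S89A libraries summed. Leaving out single libraries moved Itga3 from -0.134 to 0.091, Itgae from -0.156 to 0.135 and Itga10 (reported 0.112) from -0.073 to 0.277 in TAZ-S89A against YAP-5SA, and Itgav from -0.026 to 0.246 and Itgb1 from -0.201 to 0.025 in TAZ-S89A against YAP-S127A. The cause was not tested. With no low-count filter all 36 members were tested, the 4 with few counts included, and 14 were called higher and 13 lower in YAP-5SA against YAP-S127A, 11 and 13 in TAZ-S89A against YAP-S127A, and 8 and 16 in TAZ-S89A against YAP-5SA. Depth limits what can be said of these 4.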
